A study of Homo sapiens with 6 samples.

Results

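Described here are 10 genes of the integrated stress response, chosen by symbol, all of which matched 1 row each among the 32692 genes of the deposited table. They are 6 transcription factors of the bZIP class, which bind DNA as dimers (ATF4, DDIT3, ATF3, ATF5, CEBPB and CEBPG), and 4 feedback or effector genes (TRIB3, PPP1R15A, CHAC1 and NUPR1). The integrated stress response slows translation and changes transcription when a cell meets misfolded protein, amino acid shortage, haem shortage or viral RNA. Each of these acts through a kinase that phosphorylates the initiation factor eIF2, after which the messenger RNA of ATF4 is translated better while most others are translated less. ATF4 and CHOP, the product of DDIT3, turn on further factors and also genes that feed back on the response.

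RNA was measured by sequencing in DU145, an established human prostate carcinoma line that lacks androgen receptor signalling, after 24 h with 5 µM OTI-611, a small molecule that the labels give under a code name, or with its solvent DMSO for the same time. Each group had 3 libraries, and the labels do not say whether they were separate cultures, so each p-value refers to the spread among these libraries alone, which may be technical. The series title names the chromatin remodeller CHD1L as the target.

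The unit was taken to be RPKM, a read number divided by gene length and by library size. Levels of different genes are set side by side below as listed. Whether amplification, the gene lengths used or shared exon bases shift 1 gene against another was not tested. In the DMSO 1 library every value is a whole number, taken to be RPKM whose decimals were dropped, and results are given without it where that matters. Its difference from the average of the other DMSO libraries was -0.533 to -0.509 RPKM for genes at 1 to 50 RPKM, and -0.918 ± 0.098 RPKM (SE) for those at 50 to 200 RPKM. Why it was larger in the upper range was not tested. Genes above 200 RPKM, ATF4 among them, were not compared in this way. Depth estimated from the steps between low values was 37.2 to 37.7 M reads in the OTI-611 libraries and 30.7 to 32.3 M reads in DMSO 2 and DMSO 3 (M, mega). The 5 epithelial markers summed to 471 to 517 RPKM with OTI-611 and 503 to 529 RPKM with DMSO, mostly from the keratins. Within them KRT8 had 103 to 109 RPKM with OTI-611 and 146 to 153 RPKM with DMSO, and CDH1, the E-cadherin gene, had 1.45 to 1.71 RPKM with OTI-611 and 4 to 4.8 RPKM with DMSO. The groups overlapped for EPCAM (13 to 15.2 RPKM with OTI-611, 13 to 14.6 RPKM with DMSO). They also overlapped for KRT18 (94.7 to 105 against 99 to 99.8 RPKM) and KRT19 (255 to 289 against 240.0 to 258 RPKM). The part of the lower KRT8 and CDH1 in the results was not tested. The 3 immune markers summed to at most 0.0454 RPKM with OTI-611 and 0.0956 RPKM with DMSO. CHD1L was listed at 0.585, 0.792 and 0.546 RPKM with OTI-611, against 0, 0.662 and 0.691 RPKM with DMSO. No difference was detectable at these levels (limma with no filter on low values, log2 difference 0.21 ± 0.25 SE, adjusted p = 0.632). The 0 belongs to DMSO 1. The ratio of means, OTI-611 over DMSO, was 1.42 with that library and 0.947 against DMSO 2 and DMSO 3 alone.

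Most of the 10 genes were higher with OTI-611, and the factor that heads the response was not among them. Of the 9 genes high enough to test, 7 rose and 2, ATF4 and ATF5, fell, at an adjusted p of 0.05. The test was limma, a linear model for each gene that shares information on the spread across genes, on log2(RPKM + 1), with p adjusted over all genes by the Benjamini-Hochberg method. Among all 11978 genes tested, 27.8% rose and 37.3% fell. Without DMSO 1 the counts were again 7 higher and 2 lower, against 26.3% higher and 41.9% lower among all genes tested. Of the 9, 6 rose by at least 1 on the log2 scale, against 1.91% of all genes tested. The OTI-611 and DMSO libraries did not overlap for any of the 9, but this was also true of 70.2% of all genes tested. These are bulk samples of 1 cell line, in which fewer cells holding an RNA and less of it per cell cannot be told apart.

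**Figure D1:**
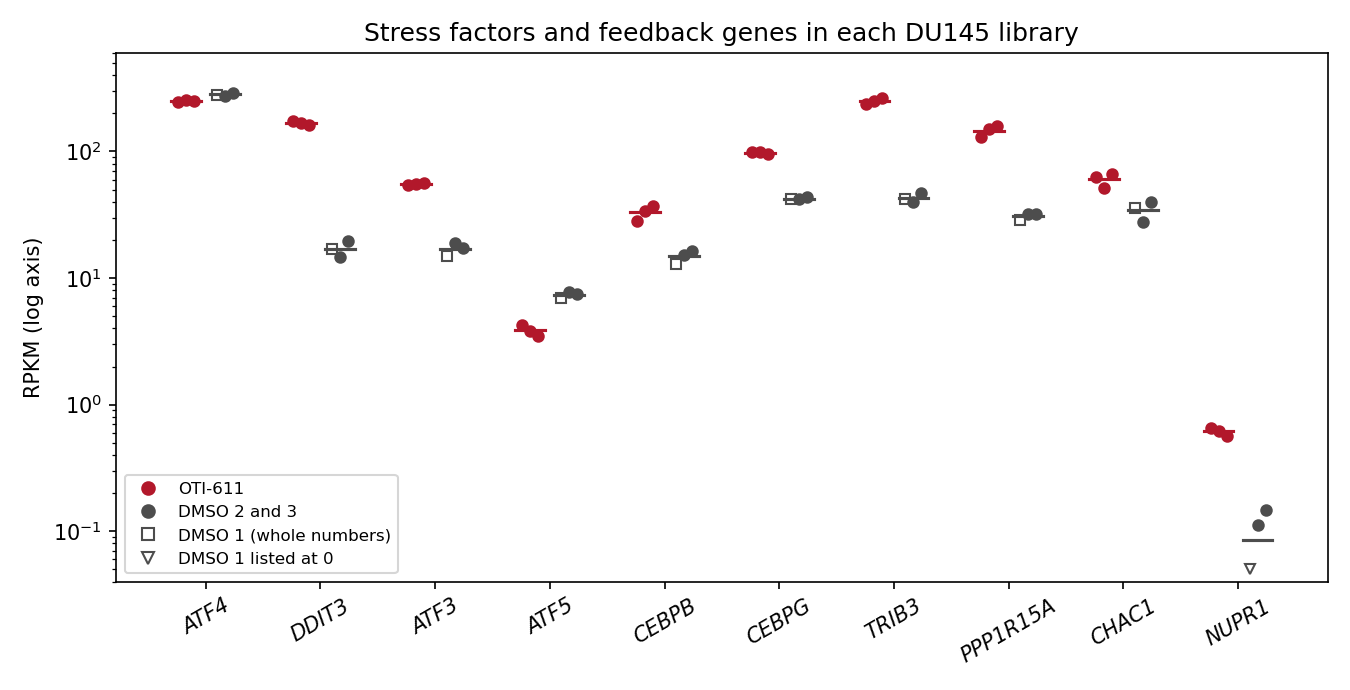
RPKM of the 10 genes in each library on a log axis, OTI-611 in red at the left of each pair and DMSO in grey; horizontal lines are group means, open squares DMSO 1, and the open triangle marks NUPR1 listed at 0 in DMSO 1. The OTI-611 points lie above the DMSO points for 8 genes and below them for ATF4 and ATF5.

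DDIT3 encodes CHOP, a bZIP factor that pairs with C/EBP proteins and is known for promoting cell death under lasting stress. It had 175, 169 and 163 RPKM in the OTI-611 libraries, against 17, 14.7 and 19.6 RPKM in the DMSO libraries. All OTI-611 libraries stood far above all DMSO libraries, with a gap of 144 RPKM between the nearest ones. The mean was 9.89-fold higher with OTI-611 (169 ± 5.9 against 17.1 ± 2.4 RPKM, SD, n = 3 per group). On the log2(RPKM + 1) scale the change was 3.24 ± 0.081 (SE, limma adjusted p = 9.77e-09). It ranked 2 from the top among the 11978 genes tested. DDIT3 lies at chr12:57516588-57521737 (minus strand; this and later gene positions are GENCODE v29 on GRCh38), and 39.6% of its exon bases are also exonic in neighbouring genes. Those neighbours include MARS1, a tRNA synthetase gene on the other strand, at 222, 218 and 219 RPKM with OTI-611 and 142, 141 and 148 RPKM with DMSO, and how shared reads were counted is not given in the sources used here. MIR616, a microRNA gene inside DDIT3, had 24.3, 22.6 and 30.6 RPKM with OTI-611, against 4, 3.02 and 3.81 RPKM with DMSO, and its reads cannot be told apart from those of its host.

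ATF4 itself had the highest listed RPKM of the 10 in the DMSO libraries and was slightly lower with OTI-611. It had 246, 253 and 252 RPKM with OTI-611, against 280, 276 and 292 RPKM with DMSO. The groups did not overlap, yet the step was small: the mean fell to 251 ± 3.7 RPKM with OTI-611, against 283 ± 8.4 RPKM with DMSO (SD, n = 3 per group), a ratio of 0.887. The log2 fold change was -0.17 ± 0.027 (SE, limma adjusted p = 0.000423). Leaving out DMSO 1 gave -0.18. It stayed lower but came to -0.12 after rescaling the libraries to their median log ratio (limma adjusted p = 0.0325), a scaling that moved the median of all genes by 0.05. It ranked 4588 from the bottom of the 11978 genes tested, and lies at chr22:39519695-39522685 (plus strand). ATF4 protein, which is set largely by translation, was not analysed here. Of the pseudogenes of ATF4 in the table, ATF4P3 was at 0.355 to 0.577 RPKM with OTI-611 and 0 to 0.802 RPKM with DMSO.

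ATF5, a relative of ATF4 whose messenger RNA is also under translational control, fell by more. It had 4.26, 3.83 and 3.48 RPKM with OTI-611, against 7, 7.81 and 7.43 RPKM with DMSO. Every OTI-611 library was below every DMSO library. The log2 fold change was -0.79 ± 0.074 (SE, limma adjusted p = 1.24e-05). Leaving out DMSO 1 gave -0.83. Estimated from depth and gene length, these values stand for 387 to 469 reads with OTI-611 and 708 and 710 reads in DMSO 2 and DMSO 3. ATF5 lies at chr19:49928702-49933935 (plus strand) and 23.7% of its exon bases are also exonic in neighbouring genes, of which NUP62 on the opposite strand also fell, to 43.8, 44.4 and 46.8 RPKM with OTI-611, against 58, 58.5 and 56.8 RPKM with DMSO. Whether shared reads take part in the fall of ATF5 was not tested.

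ATF3, a bZIP factor induced by many stresses that can act as a repressor, rose. It had 54.2, 55.5 and 56.6 RPKM with OTI-611, against 15, 18.9 and 17.3 RPKM with DMSO. The OTI-611 libraries were close together and more than 35 RPKM above the highest DMSO library. The log2 fold change was 1.65 ± 0.067 (SE, limma adjusted p = 9.69e-08). Leaving out DMSO 1 gave 1.56. The ratio of means was 3.25 with all libraries and 3.06 against DMSO 2 and DMSO 3 alone. ATF3 spans chr1:212565334-212620777 (plus strand).

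Of the 2 C/EBP genes, both partners of ATF4 or CHOP in dimers, CEBPG rose evenly and CEBPB with more spread. CEBPG had 98.3, 99.7 and 95.5 RPKM with OTI-611, against 42, 41.8 and 43.5 RPKM with DMSO (log2 fold change 1.19 ± 0.028 SE, limma adjusted p = 8.09e-09). Its libraries were tight within each group and it lies at chr19:33373330-33382686 (plus strand). CEBPB had 28.2, 33.9 and 37.0 RPKM with OTI-611, against 13, 15.1 and 16.5 RPKM with DMSO (log2 fold change 1.10 ± 0.10 SE, limma adjusted p = 1.26e-05). The library OTI-611 1 was the lowest of its group, still 11.7 RPKM above the highest DMSO library. CEBPB lies at chr20:50190734-50192689 (plus strand). CEBPB-AS1, an antisense gene that shares 11.8% of the exon bases of CEBPB, was at 0.180 to 0.354 RPKM with OTI-611 and at 0 to 0.467 RPKM with DMSO.

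TRIB3 encodes a pseudokinase that binds ATF4 and CHOP and dampens their activity. It had 237, 251 and 263 RPKM with OTI-611, against 42, 39.7 and 46.9 RPKM with DMSO. No DMSO library came near the OTI-611 ones, and the gap was 189.7 RPKM. The mean was 5.84-fold higher with OTI-611 (250.2 ± 13 against 42.9 ± 3.7 RPKM, SD, n = 3 per group). On the log2 scale it rose by 2.52 ± 0.059 (SE, limma adjusted p = 8.09e-09), rank 7 from the top. TRIB3 lies at chr20:362835-397559 (plus strand).

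PPP1R15A encodes GADD34, the inducible subunit that brings protein phosphatase 1 to eIF2 and so reverses its phosphorylation. It had 130.3, 150.1 and 158 RPKM with OTI-611, against 29, 32.3 and 32.0 RPKM with DMSO. OTI-611 1 was the lowest treated library here too, as for ATF3, ATF4, CEBPB and TRIB3. The same library was the highest treated one for DDIT3, ATF5 and NUPR1. The mean was 4.70-fold higher (log2 fold change 2.19 ± 0.068 SE, limma adjusted p = 2.07e-08), rank 14 from the top. PPP1R15A lies at chr19:48872392-48876057 (plus strand).

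CHAC1, an enzyme that degrades glutathione and a target of ATF4 and CHOP, rose least among the 7 and had the widest SE. It had 63.0, 51.4 and 66.0 RPKM with OTI-611, against 36, 27.8 and 40.1 RPKM with DMSO. The gap between the groups was 11.3 RPKM, smaller than the range within either group (14.6 RPKM with OTI-611 and 12.4 RPKM with DMSO). The log2 fold change was 0.79 ± 0.13 (SE, limma adjusted p = 0.000474). Leaving out DMSO 1 gave 0.82. CHAC1 lies at chr15:40952962-40956519 (plus strand).

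NUPR1, a small stress-induced nuclear protein, had a low RPKM and lay under the minimum mean of 1 RPKM for testing. It was listed at 0.653, 0.622 and 0.570 RPKM with OTI-611, against 0, 0.111 and 0.146 RPKM with DMSO. The 0 belongs to DMSO 1, where any value under 1 would read as 0. Given an exon length of 5674 bases, the other values correspond to an estimated 138, 131 and 122 reads with OTI-611. In DMSO 2 and DMSO 3 the estimates were 19 and 27 reads. NUPR1 lies at chr16:28532708-28539174 (minus strand). In a fit that kept low genes, its log2 fold change was 0.58 ± 0.082 (SE, limma adjusted p = 0.0061), and the OTI-611 mean was 4.80-fold that of DMSO 2 and DMSO 3.

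**Figure D2:**
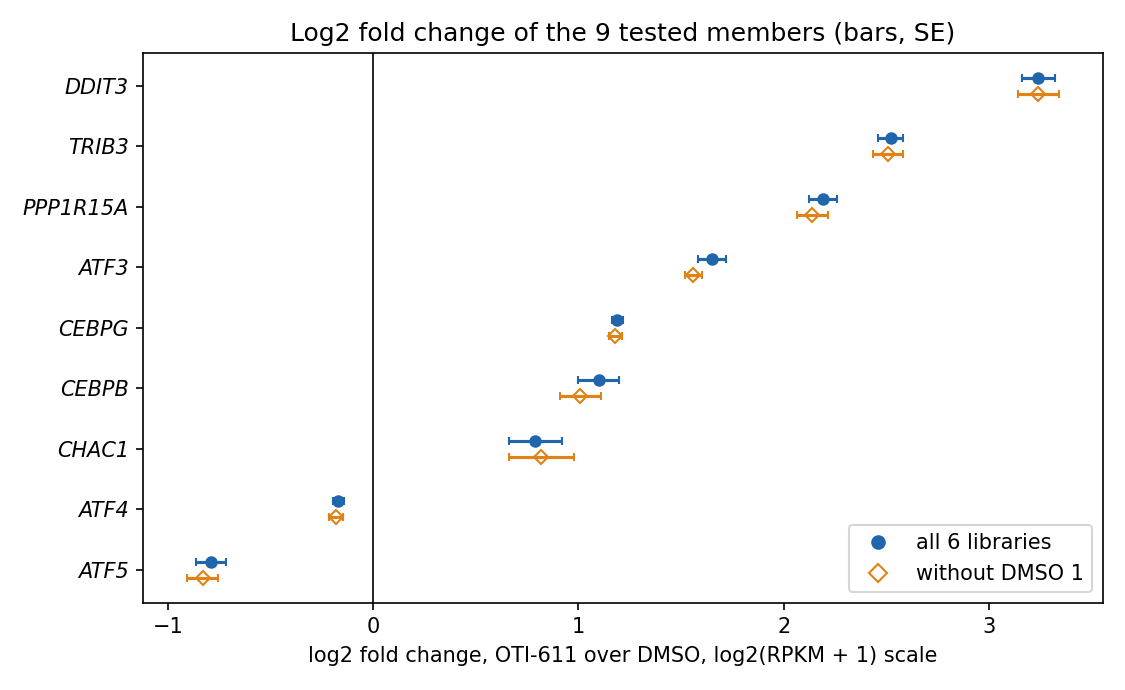
Log2 fold change of the 9 tested genes, OTI-611 over DMSO on the log2(RPKM + 1) scale, with all 6 libraries (filled circles) and without DMSO 1 (open diamonds); bars are SE from limma. The order of the genes is the same in both fits, from DDIT3 at 3.24 to ATF5 at -0.79 with all libraries.

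Promoter sequence was searched for 3 elements known from stress genes, and the stretches with a match are shown so that the letters can be read beside the values. Of the 9 genes with windows 7 rose, and the matches were not tested against the changes. The windows were the 250 bases before each RefSeq start (GRCh38.p14), with no base after it, available for 9 of the 10 genes with 1 to 3 windows each, and both strands were read. The first element was the C/EBP-ATF composite site TGATGNAA, bound by dimers of ATF4 and C/EBP factors, the second the cyclic AMP response element TGACGTCA, and the third the endoplasmic reticulum stress element, CCAAT and CCACG with 9 bases of any kind between them. The composite site was found in ATF3, CHAC1 and CEBPG, 3 of 9 members, against 3.89% of the 27305 genes with a window. Those genes had 35116 windows in all. A gene counted if any of its windows matched, and these shares were not adjusted for the number of windows per gene. The cyclic AMP response element was found in PPP1R15A, against 2.03% of genes. The full endoplasmic reticulum stress element was in none of the 9 and in 0.0916% of genes. DDIT3 held it without its last base, a form present in 0.344% of genes and searched after the sequence of DDIT3 had been seen. No element was found in these windows of ATF4, ATF5, CEBPB or TRIB3, which says only that these letters are not there. Capitals mark the matched letters, and each line reads 5′ to 3′ on the strand of the gene.
ATF3 composite site, 191 to 184 bases before a start, chr1:212565190-212565249, plus strand: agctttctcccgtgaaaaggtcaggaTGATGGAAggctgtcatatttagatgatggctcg
CEBPG composite site, 42 to 35 bases before a start, chr19:33374045-33374104, plus strand: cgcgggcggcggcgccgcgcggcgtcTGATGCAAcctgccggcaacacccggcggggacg
CHAC1 composite site read on the opposite strand, 209 to 202 bases before its start, chr15:40953251-40953280, plus strand: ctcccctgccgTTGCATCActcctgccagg
PPP1R15A cyclic AMP response element, 58 to 51 bases before its start, chr19:48872352-48872381, plus strand: gcctctcttcgTGACGTCAgcacgccgggc
DDIT3 shortened stress element, 100 to 83 bases before a start, chr12:57520571-57520640, minus strand: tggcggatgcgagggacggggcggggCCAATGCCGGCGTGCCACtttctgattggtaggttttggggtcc

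The stretch of CHAC1 lies inside an exon of longer transcripts in GENCODE v29, and the other 4 lie outside annotated exons of their gene. A match describes the letters and does not show binding.

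By listed RPKM, the order of the levels within a library changed with OTI-611. In the DMSO libraries ATF4 stood first at 283 RPKM and well above TRIB3 (42.9 RPKM) and CEBPG (42.5 RPKM), whose ranges overlapped. CHAC1 (34.6) and PPP1R15A (31.1) overlapped next, then DDIT3, ATF3 and CEBPB at 17.1, 17.1 and 14.9 RPKM, each overlapping its neighbour, with ATF5 and NUPR1 below. In the OTI-611 libraries ATF4 (251 RPKM) and TRIB3 (250.2 RPKM) overlapped at the top. DDIT3 followed at 169 RPKM, PPP1R15A at 146 RPKM and CEBPG at 97.8 RPKM, each apart from its neighbours. CHAC1 (60.2 RPKM) and ATF3 (55.4 RPKM) overlapped, and CEBPB, ATF5 and NUPR1 came last in that order.

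Summed over the 10 genes, the level was 1037, 1068 and 1096 RPKM in the OTI-611 libraries, against 481, 474 and 516 RPKM in the DMSO libraries. The means stood in a ratio of 2.18, which was 2.16 without DMSO 1. ATF4 held 23.8%, 23.7% and 23.0% of that sum with OTI-611, against 58.2%, 58.2% and 56.6% with DMSO. DDIT3 held 14.9% to 16.9% with OTI-611 and 3.1% to 3.8% with DMSO, and TRIB3 22.8% to 24.0% with OTI-611 and 8.4% to 9.1% with DMSO.

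**Figure D3:**
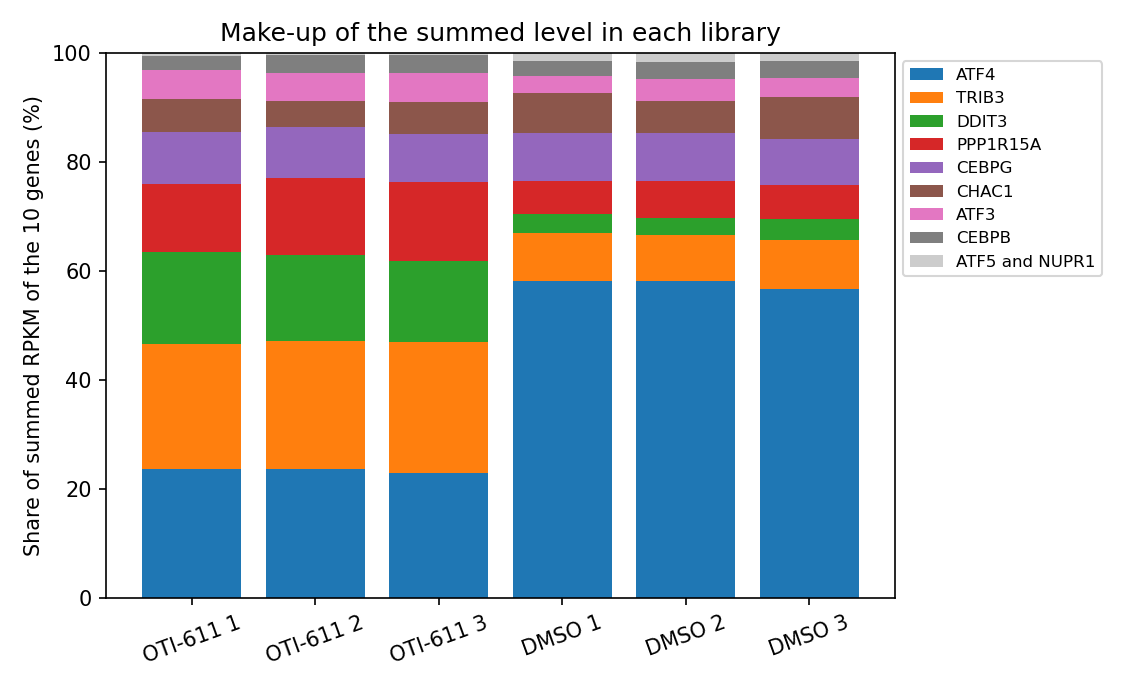
Share of each gene in the summed RPKM of the 10 genes, in percent, for the 3 OTI-611 and 3 DMSO libraries; each bar adds to the whole. ATF4 fills 23.0% to 23.8% of the bars with OTI-611 and 56.6% to 58.2% with DMSO.

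Ratios between members within a library showed how unequally they changed. For each unit of ATF4 there were 0.710, 0.668 and 0.647 units of DDIT3 with OTI-611, against 0.0607, 0.0534 and 0.0671 with DMSO, a log2 difference of 3.49. CEBPB, a dimer partner of CHOP, stood at 0.162, 0.201 and 0.227 of the DDIT3 level with OTI-611, against 0.765, 1.03 and 0.845 with DMSO, a log2 difference of -2.17. Both ratios separated the groups in all 6 libraries, with an exact two-sided permutation p of 0.1, the smallest that 3 libraries against 3 allow. TRIB3 equalled 0.960 to 1.04 of the ATF4 level with OTI-611 and 0.144 to 0.161 of it with DMSO. CHAC1 stood at 0.304 to 0.405 of the DDIT3 level with OTI-611, whereas it exceeded DDIT3 in the DMSO libraries at 1.89 to 2.12 of its level.

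In a list of 21 genes for the eIF2 kinases, eIF2, its exchange factor eIF2B and their phosphatase partners, 5 rose, 11 fell and 5 did not pass, where 27.8% of all genes tested rose and 37.3% fell. The median change of these genes was -0.17 (log2), against -0.05 over all genes tested. OMA1, the mitochondrial protease that relays mitochondrial stress to the kinase HRI, fell to 3.97, 4.30 and 3.61 RPKM with OTI-611, against 9, 9.07 and 8.49 RPKM with DMSO (log2 fold change -0.99, limma adjusted p = 1.47e-06). The eIF2 subunit genes split, with EIF2S3 lower (-0.55), EIF2S2 higher (0.48) and EIF2S1 at -0.04 (adjusted p = 0.132). Of the kinases, PKR (EIF2AK2, -0.60) and GCN2 (EIF2AK4, -0.33) fell, and HRI (EIF2AK1) was at -0.05 (limma adjusted p = 0.229). PERK, the kinase of the endoplasmic reticulum (EIF2AK3), had 2.94, 2.98 and 3.07 RPKM with OTI-611, against 3, 3.66 and 3.88 RPKM with DMSO. Its log2 fold change of -0.17 did not pass with all libraries (limma adjusted p = 0.124) and came to -0.26 without DMSO 1 (adjusted p = 0.00737). DNAJC3, a chaperone that inhibits eIF2 kinases, rose by 0.66 on the log2 scale, and PPP1R15B, the constitutive counterpart of PPP1R15A, by 0.46.

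Known targets of ATF4 and CHOP beyond the 10 genes were higher in most cases. Of 43 such genes, 40 were tested, of which 37 rose and 3 fell, where 27.8% of all genes tested rose and 37.3% fell. Without DMSO 1 the counts were 37 and 3, beside 26.3% and 41.9% of all genes. Their median change was 0.75 (log2). The stress protein gene NIBAN1 had 82.1, 80.9 and 77.2 RPKM with OTI-611, against 25, 25.1 and 25.0 RPKM with DMSO (log2 fold change 1.64). The tRNA synthetase genes AARS1 (1.45) and SARS1 (1.06) and the autophagosome gene MAP1LC3B (1.28) were the others with the smallest p. The 3 that fell were ALDH18A1, which makes a precursor of proline (-0.39), SLC7A11, the cystine transporter (-0.30), and VLDLR (-0.29), whose call was lost when all libraries were cut to whole numbers (limma adjusted p = 0.0585). SESN2, FGF21 and INHBE lay under the minimum for testing. SESN2 was listed at no more than 0.0155 RPKM with OTI-611 and 0.0188 RPKM with DMSO, and INHBE at 0.218, 0.283 and 0.247 RPKM with OTI-611, against 0, 0.053 and 0.0752 RPKM with DMSO.

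**Figure D4:**
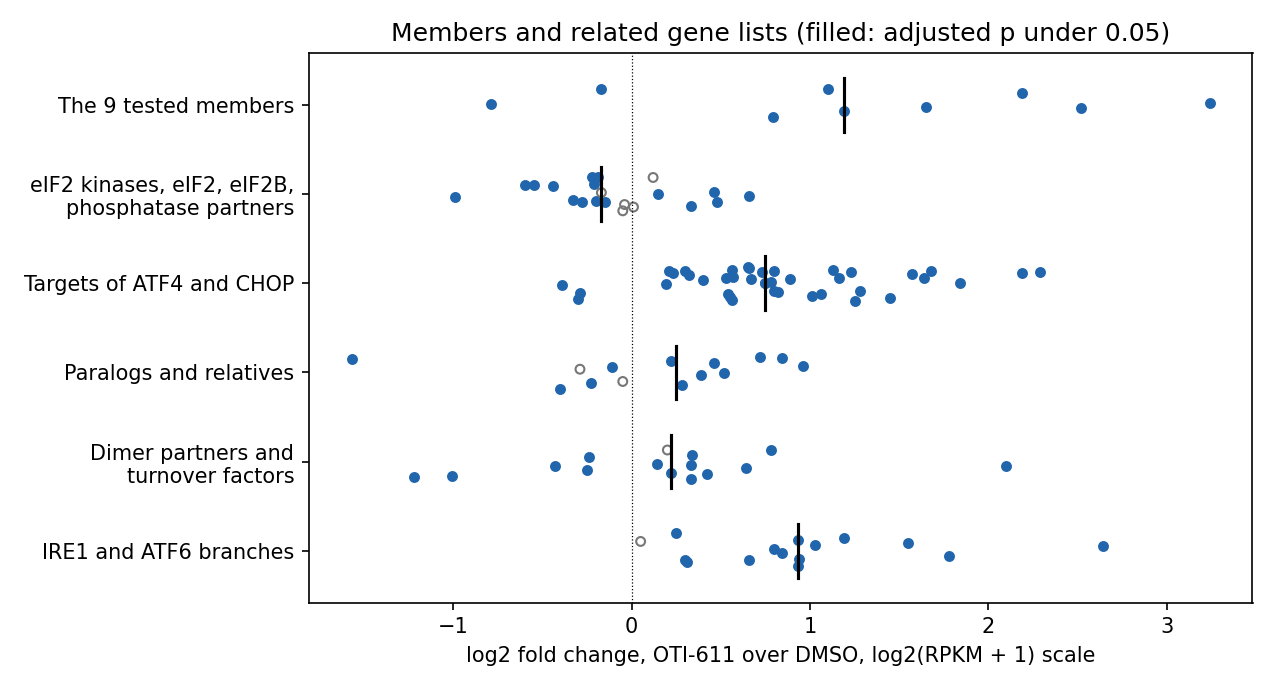
Log2 fold change, OTI-611 over DMSO on the log2(RPKM + 1) scale, of the 9 tested members and of the tested genes of 5 related lists, 1 point per gene and spread vertically for legibility only; filled points passed a limma adjusted p of 0.05, and black lines are medians. The medians are 1.19 for the members, -0.17 for the eIF2 genes, 0.75 for the targets, 0.25 for the paralogs, 0.22 for the partners and 0.93 for the IRE1 and ATF6 branches.

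Of 20 paralogs and relatives of the members, 17 were in the table and 14 were tested, of which 8 rose, 4 fell and 2 did not pass, where 27.8% of all genes tested rose and 37.3% fell. Their median change was 0.25 (log2). The number that fell was 2 without DMSO 2 and 2 without OTI-611 1. CEBPD, a C/EBP factor of inflammation, fell to 5.73, 5.81 and 7.17 RPKM with OTI-611, against 16, 22.8 and 23.3 RPKM with DMSO (log2 fold change -1.57, limma adjusted p = 6.66e-06), opposite in sign to CEBPB and CEBPG. TRIB1, a paralog of TRIB3 outside the naming rule, had 3.74, 6.14 and 4.55 RPKM with OTI-611, against 4, 5.61 and 5.35 RPKM with DMSO (-0.05, limma adjusted p = 0.777). CHAC2, the paralog of CHAC1 and likewise outside the rule, had 16.7, 21.1 and 20.1 RPKM with OTI-611, against 24, 24.3 and 20.3 RPKM with DMSO. These groups overlapped, and the log2 fold change of -0.23 passed with all libraries (limma adjusted p = 0.0441) but not without DMSO 1 (0.143), DMSO 2 (0.139), OTI-611 1 (0.132) or OTI-611 3 (0.054). The call for CHAC2 was also lost with no filter on low values (limma adjusted p = 0.268), after quantile normalization (0.093) and after median log ratio rescaling (0.123). It was lost too in limma without a mean-variance trend (0.102) and with all libraries cut to whole numbers (0.177). JDP2, a close relative of ATF3, rose by 0.96 on the log2 scale, ATF6 by 0.84, CREB1 by 0.72 and ATF2 by 0.52. BATF3 (-0.40) and CEBPZ (-0.11) fell, and the place of CEBPZ in this list rests on its name alone. The call for BATF3 was lost with no filter on low values (limma adjusted p = 0.0945), without DMSO 2 (adjusted p = 0.0583), without DMSO 3 (0.0683), without OTI-611 1 (0.0582) and without OTI-611 2 (0.0504), and that for CEBPZ with libraries rescaled to their median log ratio (0.297).

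Of 15 tested factors that dimerize with the bZIP members or control their turnover, 9 rose, 5 fell and 1 did not pass, where 27.8% of all genes tested rose and 37.3% fell. Their median change was 0.22 (log2). NFIL3, a bZIP repressor, had 96.3, 91.3 and 103 RPKM with OTI-611, against 21, 21.9 and 22.8 RPKM with DMSO (4.43-fold higher, limma adjusted p = 7.51e-09). NFE2L1, which drives proteasome genes, rose by 0.64. The AP-1 genes differed in direction. JUNB and FOSL2 fell, by 1.22 and 0.43 on the log2 scale, whereas JUN (0.78, limma adjusted p = 9.18e-06) and FOSL1 (0.42, adjusted p = 0.000159) rose. JUND was at 0.20 (limma adjusted p = 0.079). It passed without DMSO 2 (0.0445), without OTI-611 1 (0.0236), after quantile normalization (0.0319) and after median log ratio rescaling (0.0147). With the replicate number as a block it passed too (0.00776). FOS lay under the minimum for testing, at 0.229, 0.661 and 0.327 RPKM with OTI-611, against 1, 1.59 and 1.49 RPKM with DMSO. EGLN3, a prolyl hydroxylase reported to destabilize ATF4, fell to 1.39, 0.855 and 1.21 RPKM with OTI-611, against 3, 3.19 and 3.78 RPKM with DMSO (log2 fold change -1.01, limma adjusted p = 8.42e-05).

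In the other branches of the unfolded protein response of the endoplasmic reticulum, which run through the sensors IRE1 and ATF6, 14 of 15 tested genes rose, where 27.8% of all genes tested rose and 37.3% fell. CRELD2 was at 0.05 (limma adjusted p = 0.449), which came to 0.13 without OTI-611 3 (0.0392). The median change of the 15 was 0.93 (log2). HSPA5, also called BiP, an abundant chaperone of that organelle, had 1418, 1467 and 1271 RPKM with OTI-611, against 218, 221 and 224 RPKM with DMSO (log2 fold change 2.64, limma adjusted p = 4.10e-09). HERPUD1 (1.78), HSP90B1 (0.93) and MANF (0.94) followed in order of p. DDIT3 rose by more than any of these, at 3.24 on the same scale.

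The genes whose profile over the 6 libraries was nearest to that of DDIT3, by the Euclidean distance between centred log2(RPKM + 1) values, were HSPA5 (0.788), TRIB3 (0.907), MIR616 (0.953), UPP1 (1.01) and TMEM158 (1.03). This distance depends largely on the difference between the groups, so the nearest genes are mainly those with the most similar fold change. UPP1 encodes a uridine phosphorylase and had 389, 411 and 413 RPKM with OTI-611, against 72, 69.8 and 80.5 RPKM with DMSO. Those nearest to ATF4 were DGKD (0.0414), TBC1D17 (0.0485), DENND1A (0.05), MXRA7P1 (0.0515) and COPS7B (0.0531), each with a log2 fold change between -0.19 and -0.16. The call for MXRA7P1 (limma adjusted p = 0.0374) was lost without DMSO 2 or DMSO 3 and without each OTI-611 library in turn (0.0754 to 0.117).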

How the data were processed

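The members and the gene lists were chosen with earlier results of these data known, so no list count is independent support for a direction. Per the labels' protocols, total RNA was extracted, its mRNA converted and amplified as in Geo-seq, and sequenced after a TruePrep library kit. Per the submitters' processing notes, which assign no roles, the tools were HTSeq, Cufflinks 2.1.1, TopHat2 2.0.9, FastQC and CASAVA 1.7, with build mm10. mm10 is a mouse build, whereas all 32692 IDs are human, so build and filters behind the values are not established. The authors deposited 5 columns taken here as RPKM (FPKM cannot be told apart) and DMSO 1 as whole numbers, a score whose scaling is not stated. DMSO 1 entered the tests, sums and ratios as RPKM with the decimals dropped. It was left out of the depth and read estimates and of the replicate comparison. 0 columns were left unused.

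Depth was estimated as the number of reads that made most low values whole within 0.05, given GENCODE v29 exon lengths (67.8% to 68.9% of them). Amplified reads are not independent molecules. In replicate pairs the median squared difference was 3.11 to 4.75 times that of counting noise. Each library counted as 1 sample, and whether this spread is biological or technical was not tested. DMSO 1 was not compared.

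Tests used limma 3.58.1 in R 4.3.3 on log2(RPKM + 1), genes with a mean of at least 1, group as the only term, a mean-variance trend, two-sided, with Benjamini-Hochberg adjustment over all 11978 genes. Fold changes on that scale understate low genes. The fit was tested on simulated data with independent normal noise, no dropped decimals and far fewer changed genes than were called here. Genes named were the members, the 4 list genes with the smallest p, up to 3 against the list's direction, and the 5 nearest profiles of ATF4 and of DDIT3. Others were named after their values were seen. The 13 alternatives changed pseudocount, filter, scaling, trend, decimals, block and libraries.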

Additional observations from a re-analysis of the deposited data

How the results depend on the processing

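Over the 13 alternatives, 7 tested members remained higher and 2 lower, and with no filter on low values NUPR1 made 8 higher. The log2 fold change ranged from 3.14 to 3.34 for DDIT3, from 0.64 to 0.90 for CHAC1, from -0.93 to -0.70 for ATF5 and from -0.19 to -0.12 for ATF4. Of 767 log2 fold changes under alternatives, from 59 genes the text names, 731 kept their direction and side of the threshold. The 24 that no longer passed were of VLDLR, CEBPZ, BATF3, CHAC2 and MXRA7P1, and the 7 that newly passed of JUND, EIF2AK3 and CRELD2. In 5 cases a change that had not passed turned its sign: EIF2AK1 (0.01) and EIF2S1 (0.01) after median log ratio rescaling, and TRIB1 after quantile normalization (0.03), without DMSO 2 (0.02) and without OTI-611 1 (0.08), with a range of -0.21 to 0.08 when 1 library at a time was left out. The number of paralogs that fell, 4, came to 2 with no filter on low values and 2 after median log ratio rescaling, and to 2 to 4 when 1 library at a time was left out. Among all genes, calls were 4085 higher and 4115 lower after quantile normalization and 3877 higher and 4025 lower after median log ratio rescaling, a more even split than 3332 and 4473. With the replicate number as a block they were 3327 higher and 4429 lower, and no member changed its call, while JUND passed and MXRA7P1 did not. Deviations of same-numbered libraries from their group means had correlations of 0.02, 0.00 and -0.06. DMSO 1 with its dropped decimals entered these deviations, and whether that hides a pairing was not tested. The numbers were not treated as pairs. At the level of NUPR1, depth and the dropped decimals of DMSO 1 limit what can be said.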
